A study of Mus musculus with 6 samples.

Results

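The stretch of mouse chromosome 17 from 64 to 74 Mb (mm10) was examined for differences in open chromatin between urothelial cells with and without Stag2. It holds the genes Ptprm, Clip4 and Ypel5, and 49 protein-coding genes in all. Members were found by taking the 100000 intervals of highest fold over local background from each of 6 ATAC-seq peak lists, merging them where they overlapped by at least 1 bp, and keeping the merged regions that lay between the bounds. This gave 664 regions of 138957 in the genome, beside 5259 on the rest of chromosome 17. The stretch was proposed because of differences between KO and WT that had been seen in these same lists, so its KO-to-WT differences are given as a description, with no test of their own.

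The study asked how open chromatin changes in resting urothelium when Stag2 is lost. The 3 WT libraries came from Stag2-WT mice and the 3 KO libraries from Stag2-KO mice. All were collected 1 week after induction with TMX, which was given in the diet to both genotypes, and all are labelled batch 1. Each library was made from GFP+, DAPI- cells sorted out of peeled urothelium, with 50000 cells per condition, so GFP- cells were not sampled. The labels call the libraries biological replicates and do not give the number, age or sex of the mice behind each, or the Cre driver. Errors here measure the spread among these libraries. Open chromatin at Stag2 does not read a deletion, so the genotype labels were not checked.

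STAG2 belongs to cohesin, a ring-shaped complex. Cohesin keeps sister chromatids joined until they part in mitosis, and it also draws DNA into loops whose bases often lie at sites bound by CTCF. A cohesin ring carries either STAG1 or STAG2, and STAG2 is frequently inactivated in bladder cancer. ATAC-seq reads where the Tn5 transposase can insert into DNA, so its peaks mark promoters, enhancers and other stretches that are not wrapped in nucleosomes. Several genes of the stretch take part in cell adhesion, the cytoskeleton and cell division. PTPRM is a receptor tyrosine phosphatase that mediates adhesion between like cells, CLIP4 belongs to a family of microtubule-binding proteins, and YPEL5 is a small zinc-binding protein associated with the CTLH ubiquitin ligase.

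The promoter sequences below are shown because the start regions of Ypel5, Dlgap1 and Ndc80 are among those with a higher rank in KO, while the start of Ptprm is set against them as one near the median of all gene starts although regions inside that gene stood much higher in KO. Each runs 5′ to 3′ on the gene's strand from 250 bases before to 50 bases after a RefSeq start (GRCm38.p6, the assembly also called mm10). Capitals mark GGGCGG, the core of the SP1 motif, on either strand.
Ypel5, first start (chr17:72836378-72836677, plus strand): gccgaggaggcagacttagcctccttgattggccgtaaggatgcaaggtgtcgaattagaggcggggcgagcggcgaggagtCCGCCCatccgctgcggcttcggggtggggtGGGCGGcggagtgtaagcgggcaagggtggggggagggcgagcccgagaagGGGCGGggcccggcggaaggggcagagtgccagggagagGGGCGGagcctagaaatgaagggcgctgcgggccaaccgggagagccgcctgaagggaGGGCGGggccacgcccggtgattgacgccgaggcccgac
Ypel5, second start (chr17:72837286-72837585, plus strand): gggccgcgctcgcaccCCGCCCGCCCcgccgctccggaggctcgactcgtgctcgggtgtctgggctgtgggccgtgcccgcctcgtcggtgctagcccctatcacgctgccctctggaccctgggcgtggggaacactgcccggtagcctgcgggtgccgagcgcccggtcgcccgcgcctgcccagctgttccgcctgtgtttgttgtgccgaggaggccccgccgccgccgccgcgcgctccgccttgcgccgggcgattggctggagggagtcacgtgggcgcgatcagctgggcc
Ptprm (chr17:67354410-67354709, minus strand): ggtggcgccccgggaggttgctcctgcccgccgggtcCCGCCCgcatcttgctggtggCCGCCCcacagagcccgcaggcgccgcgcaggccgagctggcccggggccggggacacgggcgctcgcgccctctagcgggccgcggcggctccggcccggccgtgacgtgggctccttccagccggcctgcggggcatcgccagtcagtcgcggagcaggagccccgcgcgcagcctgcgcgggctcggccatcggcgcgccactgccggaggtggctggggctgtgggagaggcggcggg
Dlgap1, first start (chr17:69968823-69969122, plus strand): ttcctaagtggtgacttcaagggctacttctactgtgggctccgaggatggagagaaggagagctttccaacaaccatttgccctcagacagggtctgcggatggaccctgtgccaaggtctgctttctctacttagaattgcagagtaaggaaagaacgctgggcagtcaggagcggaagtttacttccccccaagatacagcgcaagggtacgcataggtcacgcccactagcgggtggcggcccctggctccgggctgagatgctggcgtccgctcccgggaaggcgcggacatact
Ndc80 (chr17:71526808-71527107, minus strand): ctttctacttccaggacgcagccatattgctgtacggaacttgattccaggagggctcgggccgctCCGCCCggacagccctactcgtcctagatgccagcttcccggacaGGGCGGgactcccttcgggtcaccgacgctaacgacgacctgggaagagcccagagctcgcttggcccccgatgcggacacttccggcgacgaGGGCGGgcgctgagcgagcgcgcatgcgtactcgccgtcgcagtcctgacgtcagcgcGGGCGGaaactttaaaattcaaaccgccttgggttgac

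The first Ypel5 promoter held 5 matches to GGGCGG, the second held 2, that of Ndc80 held 4, that of Ptprm held 2 and that of Dlgap1 held 0. G and C made up 71.3% and 76.3% of the Ypel5 windows, 80.7% of the Ptprm window, 64% of the Ndc80 window and 57.7% of the Dlgap1 window. Over all RefSeq promoter windows of this length in the genome, 35.7% of 32851 held GGGCGG on either strand. The share was 36.5% of the 115 windows in the stretch and 66.7% of the 57 of these that overlapped a member region. Windows that overlap a region were not counted over the genome, so nothing is read from the latter share. The cell cycle gene homology element TTTGAA, which the DREAM complex can bind, occurred in 17.9% of all windows and 13.9% of those in the stretch. Of the printed windows, that of Ndc80, a kinetochore gene, held 1 such match. The E2F site TTCCCGCC was present in 2.19% of all windows and 0.870% of those in the stretch. For the AP-1 site TGANTCA the shares were 7.81% and 12.2%, and for the CTCF core AGGGGGC, which can share letters with the SP1 core, they were 10.6% and 7.83%. A match describes letters in these windows and not a bound site.

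The lists held 181987 to 299636 peaks per library, and the lowest local background implied by the caller's values, a measure of depth, was 5.89 to 7.98 reads. Of 12 urothelial marker genes, 9 had an interval at a start in all 6 libraries, among them the uroplakin genes Upk1a, Upk1b, Upk2 and Upk3a, while Trp63 had none in any library and Krt5 and Krt18 had one in 2 and 3 KO libraries only. None of 5 fibroblast or 4 endothelial markers, 1 of 4 smooth muscle markers (Acta2) and 1 of 5 immune markers (Csf1r) had an interval in all 6, and 4 of the immune markers had none in any library. Gains at the tested starts of these other markers ran from −0.60 (Csf1r) to 0.71 (Des), and their part in the results was not tested. The libraries did not separate cleanly by genotype. Over all tested regions, the ranks of KO replicate 3 correlated more with WT replicate 3 (r = 0.93) and WT replicate 1 (0.896) than with KO replicates 1 (0.84) and 2 (0.792). WT replicate 2 correlated more with KO replicate 2 (0.858) than with WT replicate 1 (0.777). These correlations run across regions that share libraries and are a description. Counts are therefore also given without KO replicate 3 and without WT replicate 2.

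In each library the intervals were ranked by fold, rank 1 being the highest, and a region's value was −log2 of its best rank. A library without an interval in a region was given the rank after the last. Libraries filled in this way share 1 value, so the SE of such a region can be too small. The gain of a region is the mean value in KO minus the mean in WT, so a gain of 1 corresponds to a rank number 2 times smaller in KO on the geometric mean. Regions with an interval in at least 3 libraries, 475 of the 664 members and 100565 in the genome, entered 1 limma fit with Benjamini-Hochberg adjustment at 0.05. The 189 members outside it had an interval in 1 library (116, of which 58 were KO and 58 WT) or in 2 libraries (22 in KO only, 28 in WT only and 23 in 1 library of each genotype). A member could enter the fit through the genotype in which it stood high, so the tested members are not all members. In the separate libraries 460, 471 and 468 members had an interval in WT and 463, 442 and 463 in KO. An interval was present in all 6 libraries for 299 members, 45.0%, beside 48.6% on the rest of the chromosome.

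Regions that ranked higher in KO and regions that ranked lower lay side by side along the stretch. In bulk lists a difference per cell and a difference in the mix of sorted cells cannot be told apart. A gain of at least 1 was found for 27 tested members, beside 3.31% of all tested regions in the genome, and a gain of −1 or less for 30, beside 4.74%. As shares of the stretch these were 5.68% and 6.32%, and on the rest of chromosome 17 they were 3.13% and 4.30%. Every KO library ranked above every WT library at 69 members (14.5%, background 11.4%) and below at 44 (9.26%, background 8.17%). The stretch was chosen on this contrast, so nothing is read from these shares.

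limma called 2 members higher in KO, one in Ptprm and one in Clip4, beside 0.0119% of all tested regions (12 regions). It called 0 members lower, beside 0.00895% (9 regions, or 16 with the replicate number as a block). At an unadjusted p under 0.05, limma gave 46 members higher and 51 lower (9.68% and 10.7%, beside 6.97% and 7.84% of all tested regions). Ranking by the caller's p in place of the fold gave 2 calls lower, beside 21 of 99885 regions in the genome. Without KO replicate 3 the calls in the stretch were 10 higher and 15 lower (beside 0.886% and 1.67% of the 94480 regions then tested in the genome), and without any of the other libraries they were at most 1 higher and 0 lower. A gain of at least 1 was then found for 34 members and −1 or less for 45 without KO replicate 3, and for 36 and 38 without WT replicate 2.

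**Figure D1:**
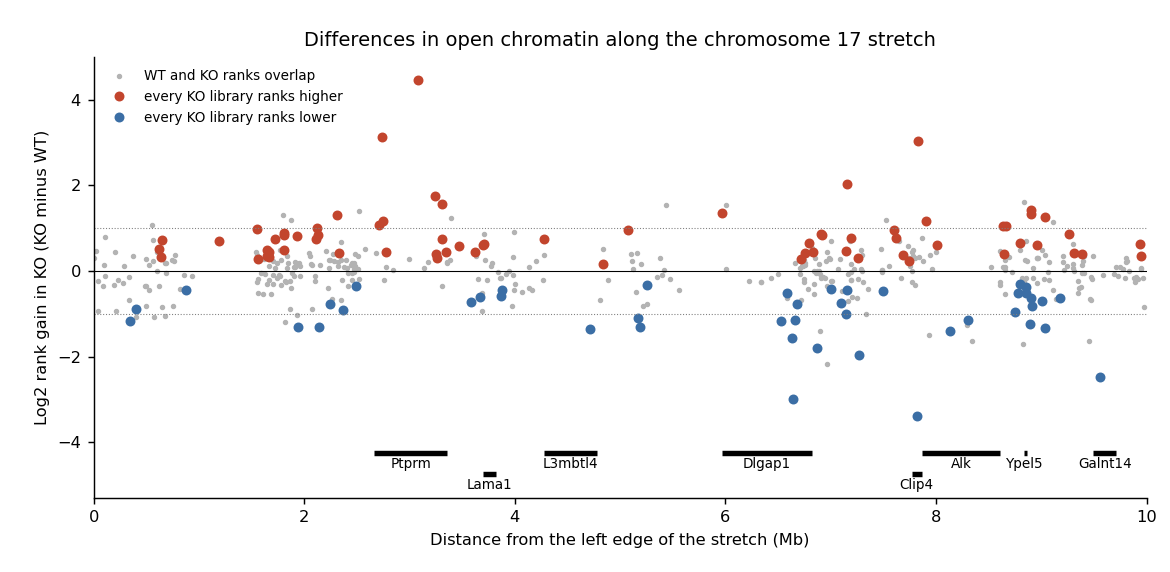
Each point is 1 of the 475 tested members, placed by its distance from the left edge of the stretch (Mb) and by its gain (log2 rank, KO minus WT, 3 libraries each). Red and blue mark members whose KO and WT ranks did not overlap (69 and 44), dotted lines mark a gain of 1 and −1, and bars mark gene spans: the points above 1 in Ptprm and those below −1 in Dlgap1 and Alk stand out, and Clip4 holds one far above and one far below 0.

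Ptprm held the largest differences in favour of KO. At 67082457 to 67082764, inside the gene, the interval ranked 58321, 17545 and 30443 in WT replicates 1 to 3 and 1754, 437 and 3772 in the KO replicates. All 3 KO libraries stood above all WT libraries, with WT replicate 2 the nearest, and the gain was 4.47 ± 0.78 (SE, n = 3 per group). The fold over local background was 6.40, 23.2 and 12.8 in WT and 30.9, 44.6 and 25.1 in KO. Coverage at the summit was worked back from the caller's fold and p and scaled by median ratios over regions present in all libraries. This scaled coverage was 103 ± 25 reads in WT and 269 ± 24.6 in KO (SD, n = 3), a ratio of 2.60. limma did not call this region with all 6 libraries, and with the share of each library's intervals at gene starts as a covariate its gain was 1.42.

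The Ptprm region that limma called lay at 66738282 to 66739036. It had no interval among the 100000 in WT replicates 1 and 2 and rank 95631 in WT replicate 3, while its KO ranks were 9546, 13432 and 11237. The groups were far apart and the 3 KO ranks close together, and the gain was 3.12 ± 0.30. WT replicates 1 and 2 had the same filled-in rank, so this error can understate the spread in WT. Its scaled coverage was 37.5 reads in WT replicate 3 and 355 ± 36.4 in KO (SD, n = 3). The call was lost without WT replicate 1, 2 or 3 or KO replicate 1, and kept without KO replicate 2. Without KO replicate 3 the merged region fell into separate intervals and had no tested counterpart.

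Several weaker Ptprm regions had an interval in every KO library and no WT library at the list length of 100000. The one at 67245320 to 67245824 ranked 18879, 25529 and 53284 in KO, a gain of 1.76 ± 0.36. The one at 67309613 to 67309935 ranked 30585, 23681 and 52657, a gain of 1.57 ± 0.31. KO replicate 3 was the lowest of the KO libraries at both. A neighbour at 67309011 to 67309340 ranked 66469, 61672 and 51372 in KO (gain 0.75), and here KO replicate 3 was the highest. Regions at 66777455 to 66777900 (KO ranks 73715, 71856 and 74068) and 67264835 to 67265303 (58914, 99081 and 89592) lay in the lower part of the ranked lists. At the latter, KO replicate 2 was near the end.

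In the stretch, 10 members had an interval in every KO library and no WT library at this length, beside 1.38% of tested regions, and 11 the reverse, beside 1.23%. Against the whole deposited lists 4 and 5 remained (0.842% and 1.05%, beside 0.112% and 0.171% of all tested regions). The whole lists differ: that of KO replicate 1 held 260462 intervals from a −log10 p of 3.0. The others held 149153 to 177320 intervals, from a −log10 p of 2.0. Absence from the lists is therefore not alike for the 2 genotypes. All 4 KO-only regions by that stricter reading lay in Ptprm (those at 66777455, 67264835, 67309011 and 67309613). The 5 WT-only regions lay in Dlgap1 (70589129), in Alk (72132115) and between genes at 72754391, 72907384 and 73030957, nearest to Ypel5, Lbh and Lclat1. Their WT ranks ran from 33187 to 81120.

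Along the 687644 bp of Ptprm, 20 of 40 regions were tested, and 18 of the 20 had a positive gain. For 6 of these the sign was fixed by the filter, since they had an interval in the KO libraries alone. Of the 14 others, 12 had a positive gain (background 51.5%), 5 had KO ranks above all WT ranks (background 11.4%) and 4 had a gain of at least 1 (background 3.31%). The region at 66738282 counts in all of these and would have entered the fit on its KO intervals alone. The backgrounds still hold regions with an interval in 1 genotype alone. The stretch was chosen on this contrast, so nothing is read from these counts. The regions with a negative gain were the regions at 66755391 (gain −0.22) and 67304821 (−0.36). Counting beyond the gene, 9 successive members with a gain past 1 in size were all higher in KO, from 66311930 near Mtcl1 through the start of Rab12 and Ptprm to 67391197. They include the regions at 67245320 and 67309613, whose sign the filter fixed. The start of Ptprm itself, whose promoter is printed above, ranked 30629, 44566 and 34389 in WT and 30253, 30256 and 32555 in KO. Its groups differed by little (gain 0.22 ± 0.27), and WT replicate 1 lay among the KO ranks.

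Clip4 held differences in both directions within a short distance. The region at 71815299 to 71815821 ranked 684, 442 and 589 in WT and 10627, 7896 and 2455 in KO, a gain of −3.39 ± 0.76. It was among the strongest peaks of every WT list, and KO replicate 3 lay closest to WT. The scaled coverage was 321 ± 55.2 reads in WT and 201 ± 53.8 in KO (SD, n = 3), a ratio of 0.626, and the lowest WT value (267) and the highest KO value (263) nearly met. Rank among the strongest peaks spreads small differences in fold, which here was 26.7, 42.4 and 31.2 in WT and 20.9, 30.0 and 26.8 in KO.

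The second Clip4 region, 11251 bp further at 71827073 to 71827431, had no interval in the 3 WT lists cut at 100000 and KO ranks of 16658, 15873 and 6927. KO replicate 3 was the highest, and the gain was 3.03 ± 0.38. All 3 WT values were the filled-in rank, so this error holds no spread among WT libraries. The region entered the fit through its KO libraries alone. The scaled coverage in KO was 167, 131 and 230 reads. limma called this region higher, but not when any 1 WT library was left out, and without 1 KO library it was not tested. Within 500 bp of the start of Clip4, ranks were 46600, 25393 and 35118 in WT and 42327 in KO replicate 2. KO replicates 1 and 3 had no interval there (gain −1.12 ± 0.33, groups overlapping). A merged region that reached into this window only at its edge, 71768881 to 71769213, had a gain of −0.26. With windows of 1000 bp no start of the stretch had a gain of −1 or less. Over the gene span 7 of 9 tested regions had a positive gain.

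Ypel5 showed a similar arrangement at its start. The region at 72835992 to 72836872, which covers the first printed promoter, had a scaled summit coverage of 737, 832 and 721 reads in WT and 2119, 2205 and 1616 in KO. All KO libraries stood well above all WT libraries, and the means were 763 ± 59.7 and 1980 ± 318 (SD, n = 3), a ratio of 2.59. The fold was 14.5, 17 and 15.6 in WT and 25.4, 22.3 and 25 in KO. By fold the ranks were 16327, 32217 and 21011 in WT and 5231, 19056 and 3802 in KO, with KO replicate 2 inside the WT range and a gain of 1.62 ± 0.60. Ranked by the caller's p the gain of this start was 5.88, and ranked by scaled coverage 5.61. The fold divides by a background taken around the peak. Divided by the factors that scale the summit coverage, this background was 49.7, 48.3 and 45.2 reads in WT. In KO it was 82.4, 98.3 and 63.5, with no overlap. Those factors come from summit coverage at shared regions and not from total reads. Before scaling, the background was 35.85, 67.5 and 39.7 reads in WT and 87.0, 124 and 53.8 in KO, and the groups overlapped.

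The next region, 72837245 to 72837851, covers the second printed promoter. Its scaled coverage was 418, 533 and 386 reads in WT and 660, 944 and 375 in KO, and the groups overlapped through KO replicate 3 (gain by fold −0.23 ± 0.26). Upstream, the region at 72828053 to 72829099 lay 7529 bp before the start and went the other way. Its scaled coverage was 636, 346 and 574 reads in WT and 204, 217 and 443 in KO, so KO replicate 3 lay inside the WT range. By fold it ranked 1471, 11808 and 2418 in WT and 18774, 19509 and 4056 in KO (gain −1.71 ± 0.85), and with the gene-start share as a covariate the gain turned to 1.91. The gap between this region and the start region was 6892 bp.

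**Figure D2:**
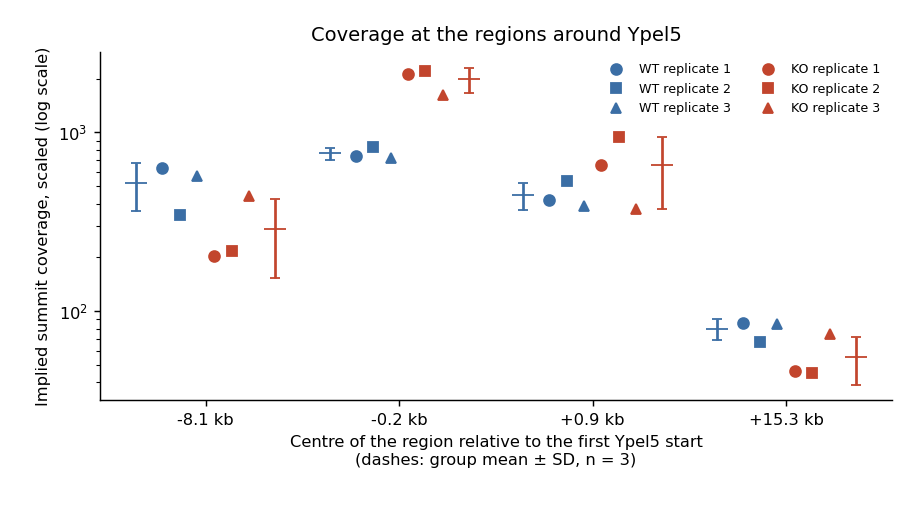
Scaled summit coverage (reads, log axis) at 4 regions around Ypel5 in each library, with dashes and bars for the mean ± SD of 3 libraries; the x axis gives the distance of a region's centre from the first Ypel5 start. The start region stands at 721 to 832 reads in WT and 1616 to 2205 in KO, while the region upstream is lower in KO replicates 1 and 2 than in any WT library.

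Dlgap1, which encodes a scaffold protein of the postsynaptic density, held members past 1 in size in both directions. The first start, whose printed promoter holds no GGGCGG, lay in the region at 69968944 to 69969902, with ranks of 63080, 38365 and 95637 in WT and 15245, 24791 and 37366 in KO. The weakest KO rank nearly met the strongest WT rank, and the gain was 1.34 ± 0.43. Scaled coverage there was 61.8 ± 21.5 reads in WT and 168 ± 62.7 in KO (SD, n = 3). With the gene-start share as a covariate the gain turned to −0.10. A region inside the gene at 70004599 to 70004980 also had a positive gain (1.53 ± 0.78), with ranks of 41312, 25392 and 54485 in WT and 3250, 47123 and 15391 in KO that overlapped through KO replicate 2. The region at 70644119 to 70644628 inside the gene ranked 7079, 2501 and 4240 in WT and 41189, 70800 and 13309 in KO, a gain of −3.0 ± 0.64. A region at 70633263 to 70633982 ranked 26312, 7857 and 20758 in WT and 41711, 53149 and 49898 in KO, a gain of −1.56 ± 0.45. Scaled coverage was 253 ± 46.6 reads in WT and 96.7 ± 66 in KO at the region of 70644119, and 144 ± 10.1 and 71.3 ± 13.7 at that of 70633263 (SD, n = 3).

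From inside Dlgap1 onwards, 7 successive members with a gain past 1 in size were all lower in KO, from 70527196 to 70963966 before Myl12b. The run held the region at 70873025 to 70874011, which lay 19493 bp from Tgif1, the gene of a homeobox repressor of TGF-beta signalling. It ranked 20477, 31245 and 36987 in WT and had no interval in the KO lists cut at 100000 (gain −1.80 ± 0.29). The start of Tgif1 itself had a gain of 0.30 ± 0.22. Over the whole of Dlgap1, 17 tested regions had a positive and 17 a negative gain, with a median of −0.01.

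Alk, the gene of a receptor tyrosine kinase, held 5 members with a gain of −1 or less, in succession from 71935788 to 72339860, and 1 of at least 1, at 71909168. The region at 72132115 to 72132539 ranked 33187, 42123 and 39084 in WT and had no interval in any KO list (gain −1.40 ± 0.22). Its start also ranked lower in KO (33716, 55797 and 18895 in WT, 68018, 60799 and 40953 in KO, gain −0.75 ± 0.35), with KO replicate 3 inside the WT range. Of its 15 tested regions 9 nevertheless had a positive gain, so the negative ones were fewer and larger.

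Other members stood apart in the same way. A region 31112 bp before Lpin2, the gene of a phosphatidate phosphatase, ranked 41342, 35107 and 48336 in WT and 8130, 10403 and 12262 in KO (71151932 to 71152420, gain 2.03 ± 0.35). Its scaled coverage was 99.8 ± 8.82 reads in WT and 206 ± 13.5 in KO (SD, n = 3), with both groups narrow. The region at 73555060 to 73555656 in Galnt14, whose enzyme starts mucin-type O-glycosylation, ranked 5895, 9020 and 5775 in WT and 52033, 65793 and 15332 in KO (gain −2.47 ± 0.55, or 0.047 with the gene-start share as a covariate). Its KO replicate 3 had a scaled coverage of 265 reads, above WT replicate 2 (239), while KO replicates 1 and 2 had 70.1 and 42.9.

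In Emilin2, which encodes a glycoprotein of the extracellular matrix, the region at 71267278 to 71267768 ranked 6980, 1024 and 2063 in WT and 10771, 7628 and 10778 in KO (gain −1.97 ± 0.70). Its scaled coverage was 342, 532 and 425 reads in WT and 234, 208 and 208 in KO, so here the 3 KO libraries were alike. In L3mbtl4, the gene of a protein with MBT repeats that bind methylated lysine, the region at 68710887 to 68711360 ranked 43327, 18612 and 32476 in WT and 91233 and 48248 in KO replicates 2 and 3, with no interval in KO replicate 1 (gain −1.36 ± 0.39). A region 13761 bp before Lbh, the gene of a transcription cofactor, ranked 91556, 63210 and 64582 in WT and 24230, 18881 and 42012 in KO (72903955 to 72904544, gain 1.43 ± 0.35). Its scaled coverage overlapped between the groups through KO replicate 3 (127 reads, beside 139 in WT replicate 2).

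**Figure D3:**
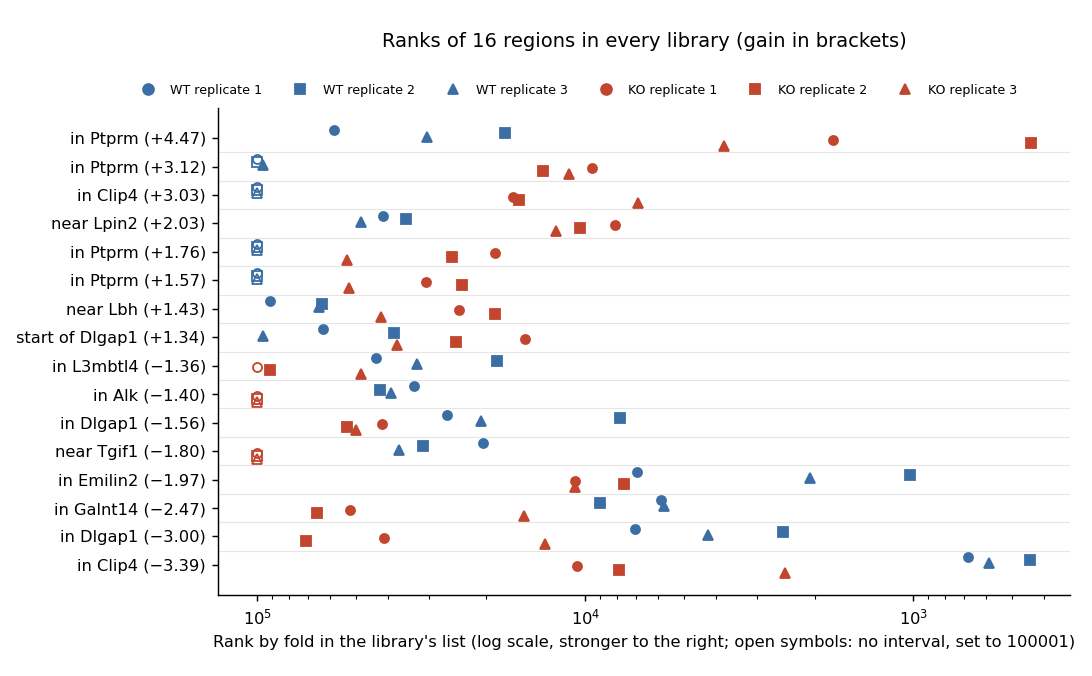
Ranks by fold (log axis, stronger to the right) of the 8 members with the largest and the 8 with the most negative gain among those whose KO and WT ranks did not overlap, 1 symbol per library, open symbols for libraries without an interval (set after the last rank). Among the lower regions KO replicate 3 (red triangles) is the KO library nearest to WT in L3mbtl4, Galnt14, Clip4 and the Dlgap1 region at 70644119.

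Of the 57 members with a gain of at least 1 in size, KO replicate 3 lay nearer to the WT mean than KO replicates 1 and 2 at 42, and it covered a median share of 0.456 of their distance. The gain that chose these members includes this library. Of the 57, 34 had ranks that did not overlap (16 higher, 18 lower). The 57 were picked on the same contrast, and the share among all regions past 1 in size was not counted, so nothing is read from this. Of the 57, 36 had an interval in all 6 libraries, and at all 36 the scaled coverage moved in the direction of the rank. The coverage is worked back from the same fold that set the ranks, so this is not separate support. Of the 27 higher members 6 lay at a gene start, 11 in a gene body and 10 between genes. Of the 30 lower members 0 lay at a gene start, 20 in a gene body and 10 between genes. Among all members 7.83% lay at a gene start, 52.6% in a gene body and 39.6% between genes. Over all tested gene starts of the genome 4.71% had a gain of at least 1 and 2.28% of −1 or less. The split among changed regions of the genome was not counted, so nothing is read from this one.

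At the starts of the 49 protein-coding genes (the best interval within 500 bp), 41 could be tested, and 34 of these had a positive gain (82.9%, beside 72% of all tested gene starts), with a median of 0.28 beside 0.24 over all 13703 tested gene starts. Gains of at least 1 were found for 6 (background 4.71%) and of −1 or less for 1 (background 2.28%). The latter was Clip4, and windows of 1000 bp gave 0. KO ranks lay above all WT ranks at 10 (background 16.9%) and below at 0 (background 1.34%). limma called 0 higher and 0 lower (background 0.0365% and 0.0292%), and at an unadjusted p under 0.05 it gave 11 and 2 (26.8% and 4.88%, beside 12.1% and 1.42% of all gene starts). Ranked by p or by scaled coverage, it called 1 higher (Ypel5), and without KO replicate 3, 5 higher (Rab12, Dlgap1, L3mbtl4, Lpin2 and Myl12a). Calls over all gene starts were not counted under these settings, so nothing is read from these numbers. The share of a list's intervals at gene starts was itself larger in KO (14.2% to 14.7%) than in WT (13.8% to 13.9%), and with this share as a covariate no region of the genome was called. These ranges do not overlap, so a fit with this covariate cannot tell the share from the genotype.

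The genes of adhesion, phosphatases and matrix had 5 of 6 tested starts with a positive gain and 3 without overlap (beside 72% and 16.9% of all gene starts). Besides Dlgap1 these were Lama1, a laminin chain of basement membranes (ranks 37710, 39519 and 32073 in WT, 23201, 21986 and 26408 in KO, gain 0.61), and Epb41l3, which links membrane proteins to the cytoskeleton (26737, 21968 and 18833 in WT, 11613, 10577 and 12211 in KO, gain 0.96). Ppp4r1, a subunit of protein phosphatase 4, had a gain of 0.25. Emilin2 was the one with a negative value (−0.25). The starts with KO libraries above all WT libraries had narrow KO ranks in both Lama1 and Epb41l3.

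The genes of cell division had 4 of 4 tested starts with a positive gain, where 72% of all gene starts had one. Ndc80, whose product attaches kinetochores to microtubules, ranked 4589, 10277 and 5860 in WT and 1657, 5513 and 2514 in KO (gain 1.2 ± 0.67), with KO replicate 2 inside the WT range. Ddx11, the gene of a helicase needed for sister chromatid cohesion, ranked 24434, 22669 and 24496 in WT and 9393, 11578 and 15744 in KO (gain 0.995 ± 0.36), with no overlap. Spdya, an activator of cyclin-dependent kinases that lies head to head with Ndc80, had a gain of 0.12 at its start at 71552061. The end of its span that faces Ndc80 (71526895) lay in the Ndc80 start region, 71526568 to 71527514, with the gain of 1.2. Ypel5 was the gene with the largest gain among the starts of the stretch. limma called none of the 4.

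Among small GTPase and membrane traffic genes all 4 values were positive, beside the same 72%. Rab12 ranked 29661, 17364 and 23294 in WT and 4042, 7531 and 21013 in KO (gain 1.41 ± 0.53), with KO replicate 3 inside the WT range. Washc1, of the WASH complex that drives actin assembly on endosomes, had a gain of 0.74 and no overlap. Rab31 and Ehd3 had gains of 0.50 and 0.22, with overlapping groups. The 6 transcription and chromatin genes all had positive values (0.06 to 0.75, background 72%): L3mbtl4 was without overlap (gain 0.75), and Smchd1, a chromosome protein of X inactivation, had 0.51.

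The cytoskeletal genes were mixed, with 3 positive and 3 negative values from −1.12 (Clip4) to 0.71 (Myl12a, a regulatory light chain of myosin). Of the receptor kinases and secreted modulators, Alk was negative and Twsg1, a modulator of BMP signalling, had 0.18. Of the 7 metabolic genes 6 were positive (background 72%). Lclat1, which remodels the acyl chains of cardiolipin, ranked 13850, 15305 and 19919 in WT and 3977, 6353 and 15273 in KO (gain 1.15 ± 0.52), with KO replicate 3 inside the WT range. Xdh, xanthine dehydrogenase, had a gain of 0.36 without overlap.

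Outside these lists, the start of Akain1, the gene of an inhibitor of protein kinase A anchoring, had a gain of 1.53 ± 0.74, and its ranks overlapped (41054, 6108 and 36723 in WT, 8193, 2620 and 17672 in KO). WT replicate 2 was the WT library inside the KO range. The most negative starts after Clip4 and Alk were Pja2, a ubiquitin ligase gene (−0.67 ± 0.73), Arhgap28 (−0.30 ± 0.55) and Emilin2. All 3 had overlapping groups, and the errors were larger than the gains.

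**Figure D4:**
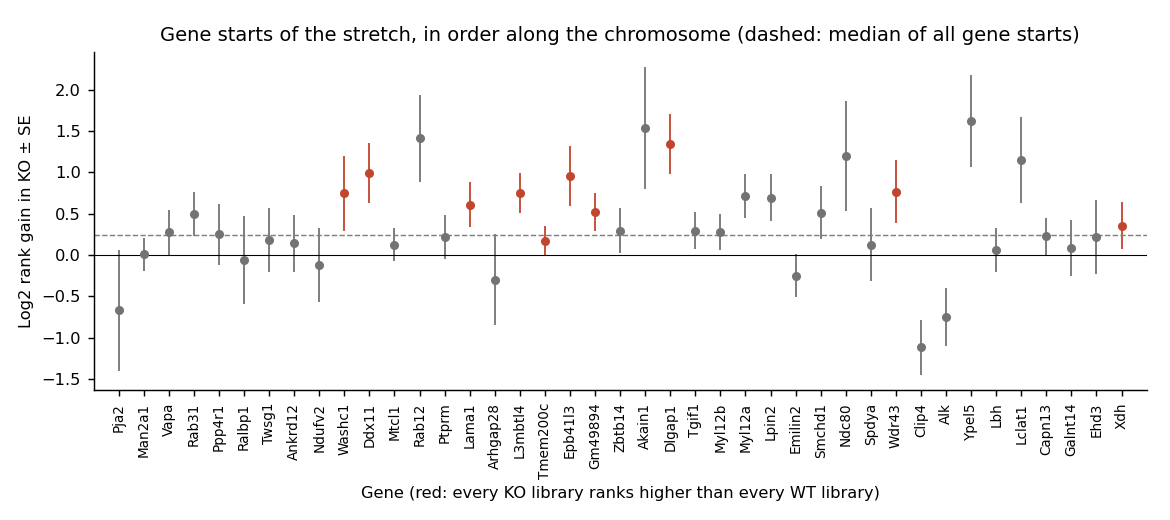
Gain ± SE (log2 rank, KO minus WT, n = 3 per group) at the 41 tested gene starts in chromosome order, with red for starts where every KO library ranked higher than every WT library and a dashed line at the median of all gene starts (0.24). Akain1, Ypel5, Rab12, Dlgap1, Ndc80 and Lclat1 lie above 1 and Clip4 lies below −1.

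The 57 members with a gain past 1 in size were spaced at a median of 92536.5 bp, from 3847 to 1319689 bp. Of 56 successive pairs 32 had the same direction (57.1%). Of 11 pairs within 20 kb of each other, 6 had the same direction and 5 the opposite one. The opposite pairs included those in Clip4 and at Ypel5 described above, a pair before Lbh (72890112, gain −1.24, and 72898765, gain 1.33) and a pair before Lclat1 that lay 3847 bp apart (73030957, −1.33, and 73035261, 1.26). Close neighbours thus did not all share a direction.

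Over all tested members, 251 of 474 neighbouring pairs had gains of the same sign (53.0%). The shares were 50.2% on the rest of the chromosome and 49.4% in the genome. The longest runs of 1 sign were 10 regions higher in KO from 66777455 to 67265303, all in Ptprm, and 10 lower from 70222887 to 70644628, all in Dlgap1. The Ptprm run includes regions with an interval in KO libraries alone (66777455, 67245320 and 67264835). The Dlgap1 run includes the region at 70589129, with an interval in WT libraries alone. The filter fixed the sign of such regions, which also count among the neighbouring pairs. The longest run elsewhere on the chromosome held 17. The median gain of the stretch was 0.06, beside 0.03 on the rest of the chromosome and 0.02 in the genome, and 260 members were positive and 215 negative. Ranked by the caller's p or by scaled coverage, the median turned to −0.00080 and −0.042.

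By steps of 1 Mb, the median gain was highest from 67 to 68 Mb, which holds the start of Ptprm (0.21, 4 members with a gain of at least 1 and 0 of −1 or less). Of the 42 members tested there, 5 had an interval in KO libraries alone, so the filter fixed their sign. The regions at 67245320 and 67309613, which count among the 4, were of this kind. The median was lowest from 68 to 69 Mb (−0.21), a step with 15 tested members. The share of members past 1 in size was highest from 72 to 73 Mb, around Ypel5 and Lbh (23.9% of 46, 5 higher and 6 lower). Among the 46, 5 had an interval in WT libraries alone and 1 in KO libraries alone. From 70 to 71 Mb, over Dlgap1 and Tgif1, 7 of the 8 such members were lower in KO.

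Cut into 9 windows of 10 Mb, chromosome 17 had 12% of tested regions past 1 in size in this stretch, 16.4% in the window that follows it and 4.32% to 9.82% in the others. The following window had more lower than higher regions (9.82% against 6.62%), where the stretch was nearly even. The spread among libraries was like that elsewhere: the median SD of −log2 rank was 0.29 in WT and 0.32 in KO, beside 0.30 and 0.33 on the rest of the chromosome.

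**Figure D5:**
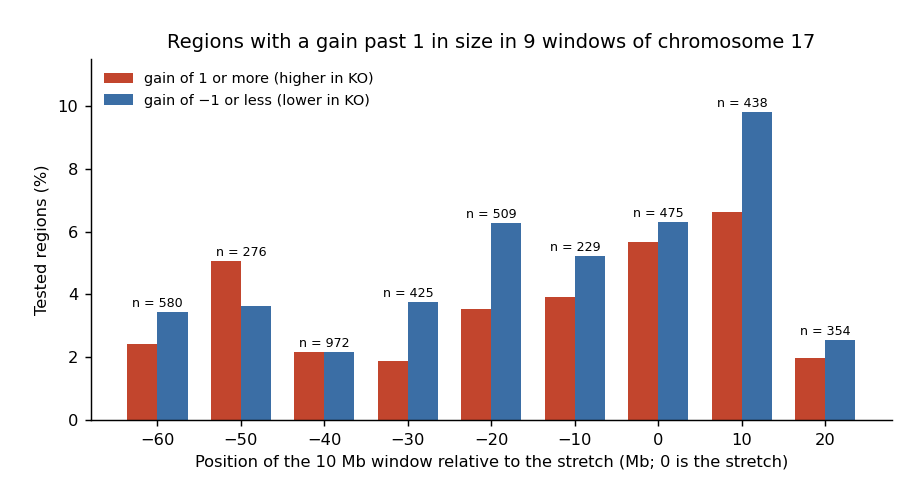
Share of tested regions (%) with a gain of at least 1 (red) and of −1 or less (blue) in 9 windows of 10 Mb along chromosome 17, with the number tested above each pair and 0 for the stretch itself. The stretch stands at 5.68% and 6.32%, second to the window that follows it.

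The members also differed from the rest of the chromosome, taken as a whole, in features that the KO-to-WT contrast did not use. They were as dense (66.4 regions per Mb, beside 64.2), but 7.83% lay at a gene start, beside 13.4%. In gene bodies lay 52.6%, beside 47.0%, and between genes 39.6% in both. The median distance to a gene start was 36678.5 bp, beside 18121 bp, and the median width 401.5 bp, beside 427 bp. The stretch therefore held fewer gene starts and long genes such as Dlgap1 (852341 bp), Alk (735715 bp) and Ptprm. It was not alone in this. In the 10 Mb windows from 4, 74 and 84 Mb, 6.60%, 7.34% and 6.89% of regions lay at a gene start. Their median distances to a gene start were 35873, 37278 and 39609.5 bp. The remaining windows had 11.7% to 22.5% of regions at a gene start. Exon positions were not used here, so a region in a gene body is given as inside the gene span only.

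At the edges, the last region before 64 Mb lay in Fer (63973955 to 63974656, gain 0.08) and the first inside lay in the same gene (64003352 to 64003865, gain 0.30). The last inside, at 73971405 to 73971681 near Xdh, had an interval in KO replicate 1 alone, and the first after 74 Mb lay in Srd5a2 (74018273 to 74018637, gain 0.02). The lowest fold that entered the 100000 intervals was 3.65 to 5.30, depending on the library.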

How the data were processed

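ATAC-seq peak lists of 3 WT and 3 KO libraries were used. Each is a list in narrowPeak format that the authors deposited per library, not for pooled libraries, with a fold over local background (a ratio), a −log10 p-value, a −log10 q-value, the summit's offset and a display score that was not used. The submitters' processing notes name the build mm10 and the tool DiffBind, whose output was not used. An aligner or peak caller is not given in the sources used here. These values depend on depth and on the local background, so they served only to rank peaks within a list, as the authors' own.

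Intervals with equal bounds were collapsed (13.1% to 19.9% of the peaks), the 100000 of highest fold were kept per library, and overlaps of at least 1 bp were merged. Merging was checked against bedtools 2.31.1, and the fit was tested on simulated data. For regions with an interval in 3 or more libraries, −log2 ranks entered a fit with limma 3.58.1 (trend, Benjamini-Hochberg at 0.05) in R 4.3.3, with all 6 libraries and no covariate. Other steps used Python 3.11.15, NumPy 2.4.6, pandas 2.3.3, SciPy 1.17.1, numba 0.67.0 and matplotlib 3.10.9. Coverage k at a summit and its background λ were solved from the authors' deposited fold, (k + 1) / (λ + 1), and the Poisson tail p. At least 99.9% of k were whole within 0.05, and k was scaled by median ratios over 66113 regions present in all libraries. Total reads per library are not given in the lists, so precision rests on the spread among 3 libraries per group. Gene spans and starts came from RefSeq (GRCm38.p6).

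Same-numbered libraries deviated together from their genotype means (r = 0.105, 0.557 and 0.401 for numbers 1 to 3, over all tested regions), beside −0.513 to 0.318 for different numbers. The numbers were taken to pair the libraries, from the data and not from a label. The pairing is in doubt: WT replicate 1 deviated more with KO replicate 3 (0.318) than with KO replicate 1, and the library names in the labels number 3 of the libraries otherwise than the titles. A fit with the replicate number as a block was an alternative. Named regions were the 8 of largest and 8 of most negative gain without overlapping ranks, all regions present in 1 genotype alone by whole lists, the largest difference in Ptprm, Clip4 and Ypel5, and the regions at the edges; named gene starts were the 5 highest, the 5 lowest and role lists. Regions named along runs and in close pairs, the second region at the Ypel5 start and the Dlgap1 region with a gain of 1.53 were chosen after their values were seen. The members and lists were chosen with earlier results of these data known.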

Additional observations from a re-analysis of the deposited data

How the results depend on the processing

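The counts depended on list length and on single libraries. Over the genome, 20 of 142170 regions were called lower with 149153 intervals, 21 of 99885 ranked by p and 19 of 98967 ranked by scaled coverage. With 50000 intervals 2 of 51841 were called higher, and with windows of fixed width 9 of 100161. Genome shares without overlap were counted under the main setting only. With 50000 intervals per library, 0 members were called higher, 12 had a gain of at least 1 and 16 of −1 or less, 40 and 21 did not overlap, 3 were WT-only and the median gain was 0.10. With 149153 intervals, 2 were called lower and 69 did not overlap with KO lower. Ranked by p, 2 were called lower, 17 had a gain of at least 1, the median gain was −0.00080, 1 gene start was called higher and 0 gene starts had a gain of −1 or less. Ranked by scaled coverage, an alternative chosen after seeing the data, 3 were called lower, 11 had a gain of at least 1, the median gain was −0.042, and the gene starts gave 1 and 0. Requiring an interval in 1 library left 0 called higher and a median of 0.018. Requiring all 6 left 0 called higher, 14 with a gain of at least 1, 40 and 22 without overlap and a median of 0.10, over 299 members. Windows of fixed width around summits left 1 called higher, and 1000 bp windows at gene starts gave 0 with a gain of −1 or less. With the share of intervals at gene starts as a covariate, 0 were called higher and 54 had a gain of at least 1. With bounds of 62 and 76 Mb, 47 had a gain of −1 or less, 70 did not overlap with KO lower and the median was 0.013, over 638 members. At a gain of 0.5 in size, 74 were higher and 80 lower, and at 2, 4 and 4. The cause was not tested for changes other than in the number of regions tested or the bounds.

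Leaving out 1 library at a time, calls ranged from 0 to 10 higher and 0 to 15 lower, gains of at least 1 from 16 to 36 and of −1 or less from 24 to 45, regions without overlap from 75 to 119 and 49 to 108, KO-only regions from 12 to 27 and WT-only regions from 12 to 36, the median gain from 0.028 to 0.066, and neighbours of 1 sign from 48.1% to 54.9%. Gene starts called ranged from 0 to 5 higher and 0 to 1 lower, and those past 1 in size from 3 to 8 and 0 to 2. The highest counts of calls came without KO replicate 3, where the genome gave 837 and 1579. Groups without overlap or with presence in 1 genotype need fewer libraries to meet the rule there.

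With the replicate block, the stretch kept 2 calls higher and 0 lower, and the median gain was 0.06; pairing changed no call in the stretch. Of 24 named regions 21 kept their direction under all alternatives that gave a value. The 3 others reversed with the gene-start covariate: the Dlgap1 start (−0.10), the region before Ypel5 (1.91) and that in Galnt14 (0.047). That share was higher in every KO library than in any WT library. The fit therefore cannot tell it from the genotype, and nothing is read from these reversals or from the calls lost there. The lists limit what can be seen at low coverage, since a library without an interval carries no value below its 100000th fold.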
